A study of Homo sapiens with 4 samples.

Results

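The genes described here handle organic osmolytes and cell volume. They are NFAT5, the osmolyte importers SLC6A12, SLC5A3 and SLC6A6, the enzyme AKR1B1 and the anion channel subunits LRRC8A, LRRC8B, LRRC8C, LRRC8D and LRRC8E, chosen by symbol and 10 of the 20323 gene rows in the files. All 10 passed the filter on low counts and are among the 12700 genes tested. LRRC8C is the symbol of 2 rows, and the row used had a mean of 193.5 counts while the other, a readthrough of LRRC8C and LRRC8D, was at 0 in each library. The large rise of SLC6A12 was already known from these data when the members were chosen, so its values are given as a description with no test.

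The 4 libraries hold poly(A) RNA of HCT-8 cells, an established human colorectal cancer line, in a derivative resistant to 5-fluorouracil (5-FU). The control group received a negative control plasmid (replicates 1 and 2) and the METTL14 group a plasmid that overexpresses METTL14 (replicates 1 and 2). METTL14 is a subunit of the complex that writes N6-methyladenosine (m6A) into mRNA. Cells of both groups were also given cycloheximide, which blocks translation, at 100 ug/mL, so each value below comes from cells under that drug. The series text describes 2 independent experiments, which does not say whether each library is a separate culture, and the p-values measure only the spread between these libraries. Parental cells, cells without cycloheximide and cells in media of different tonicity are not among these libraries.

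A cell that loses water to a concentrated medium first takes up salt and then replaces it with organic osmolytes, small molecules that keep water inside without disturbing proteins. NFAT5, also called TonEBP, is the transcription factor of this response, and genes for importers of betaine, myo-inositol and taurine and for aldose reductase, which makes sorbitol, are its classic targets in the kidney medulla. A swollen cell does the reverse and lets chloride and osmolytes out through the volume-regulated anion channel, which is built of LRRC8A together with other LRRC8 proteins.

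SLC5A3 is placed in an unusual way, which bears on how its reads can be counted. Its single coding exon lies inside the mitochondrial ribosomal protein gene MRPS6, and RefSeq gives both genes the same start. Its window of 250 bases before to 50 bases after the start is the same for both genes. The part of it shown (GRCh38.p14, chr21:34073328-34073522, plus strand) ends before the first GENCODE exon that starts inside the window. It is given because it is the same stretch for both genes in RefSeq. In GENCODE the MRPS6 gene starts further upstream, at 34073224, so the stretch lies inside that gene.

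SLC5A3 and MRPS6, sequence before the RefSeq start: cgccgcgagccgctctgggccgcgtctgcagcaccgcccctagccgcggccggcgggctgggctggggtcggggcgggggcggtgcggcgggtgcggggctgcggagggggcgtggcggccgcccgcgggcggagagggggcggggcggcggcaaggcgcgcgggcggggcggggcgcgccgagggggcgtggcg

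This stretch of 195 bases is 88.2% G and C. The whole window is at 82.0%, against a median of 58.7% over 35116 RefSeq windows, and 98.7% of those windows have less. Of the 10 members, 7 matched a window (10 windows in all), and NFAT5, SLC6A12 and SLC6A6 did not. The core of the tonicity-responsive element to which NFAT5 binds was searched on both strands as TGGAAA, and it occurred in 0 of the 10 member windows and in 7285 (20.7%) of all windows. The full consensus of that element occurred in 0 of 10 and in 1727 (4.92%) of all windows, and every match to it also holds the core. These letters can lie outside so short a window, and known elements of this kind often lie further upstream.

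Because METTL14 writes m6A, the coding sequences were also read for GGACT, the most common form of the m6A consensus, on the strand of the mRNA. The methylation itself is not analysed here. For each importer 1 GGACT whose 29 bases lie within 1 exon is shown, with GGACT in capitals (GENCODE 29, GRCh38; SLC6A12 chr12:191087-191115, minus strand; SLC5A3 chr21:34096753-34096781, plus strand; SLC6A6 chr3:14467857-14467885, plus strand).

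SLC6A12, from coding base 1810: ccaacaagggaaGGACTgatagccgggga
SLC5A3, from coding base 1567: ttttgggtcacgGGACTcattactgtaat
SLC6A6, from coding base 1187: ggattgacgctgGGACTcagatattcttc

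The coding base given is that of the first capital. SLC6A12 has 4 such motifs in 1842 coding bases, or 2.17 per kilobase, more than 86.4% of the 12485 tested genes with a coding sequence. The other members run from 0.415 per kilobase in LRRC8B to 1.66 in LRRC8C, on both sides of the median of 0.982 over those genes. SLC5A3, with 0.929 per kilobase in its 2154 coding bases, lies close to that median. The rest of its transcript of 11576 bases was not read, nor were the noncoding parts of the other genes. A match of these letters is a description of the sequence and not a site.

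Library totals ran from 19206661 to 20161082 counts, and the controls differed more from each other than the METTL14 libraries did (chi-square per degree of freedom 29.84 against 3.342). Of 10 markers of colorectal epithelium 8 reached 1 CPM (a count scaled to library size with TMM factors) in the controls and 9 with METTL14, and CEACAM5, a usual marker, was at 0 or nearly so. Their summed level was 18150 and 11840 CPM in the controls against 9248 and 9032 CPM with METTL14, most of it KRT8 and KRT18, which were lower. Of the 9 tested, 3 were lower and 3 higher, among the latter CDH17 (log2 fold change 1.87) and CDH1 (0.74), the median was 0.25, and EPCAM was at -0.01 and not called. In bulk RNA fewer cells of a type and less RNA per cell cannot be told apart. Since importers of betaine and inositol are best known in the kidney, 7 kidney markers were read too: they summed to 5.202 and 6.055 CPM in the controls against 8.631 and 7.411 with METTL14, with 0 counts of UMOD. Most of that sum was PAX8, at 2.809 and 3.079 CPM in the controls against 4.624 and 4.298 with METTL14. LHX1 made up most of the rest, at 1.717 and 2.463 CPM against 2.466 and 2.026, and neither gene was called. The 9 fibroblast markers summed to 15.4 and 18.78 CPM against 33.24 and 31.87, with ACTA2, PDGFRB and COL1A1 higher and COL1A2 (-0.79) and COL3A1 (-0.90) not called. The 8 leukocyte markers summed to 20.39 and 19.56 against 70.39 and 70.01, nearly all CD68, with CD3E and TYROBP at 0. Of the 3 tested, CD68 (log2 fold change 1.89) and CD14 (1.75) were higher and LYZ (0.32) was not called. The 5 endothelial markers summed to 0.9883 and 0.4105 against 1.901 and 1.531, with KDR at 0. The part of these markers in the results below was not tested.

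With the METTL14 plasmid, 6 of the 10 genes were higher, 1 was lower and 3 did not pass the test (edgeR, Benjamini-Hochberg adjusted p below 0.05). Over all tested genes 27.0% were called higher and 28.1% lower, 55.1% in either direction. The median log2 fold change of the members was 0.79, against -0.01 over all tested genes. Of the members 4 were called higher by at least 2-fold and 0 lower by as much, against 10.2% and 8.80% of tested genes. Both METTL14 libraries lay above both controls for 7 members, below both for 2, and overlapped them for 1, whereas 39.8% of tested genes lay above and 40.0% below, 79.8% in all. All 3 importers were among the 6 higher genes, with NFAT5, AKR1B1 and LRRC8A, and the lower gene was LRRC8C. SLC6A12 counts among the 6, the 4 and the 7, and enters the median, through the rise for which it was known. These figures are therefore not independent of the choice of members. SLC6A12 and SLC5A3 stood far from the other members. The log2 fold change of SLC5A3 was the third from the top among the 11870 tested genes with a mean of at least 1 CPM in the controls. SLC6A12 was the first there, which only restates the rise known before.

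**Figure D1:**
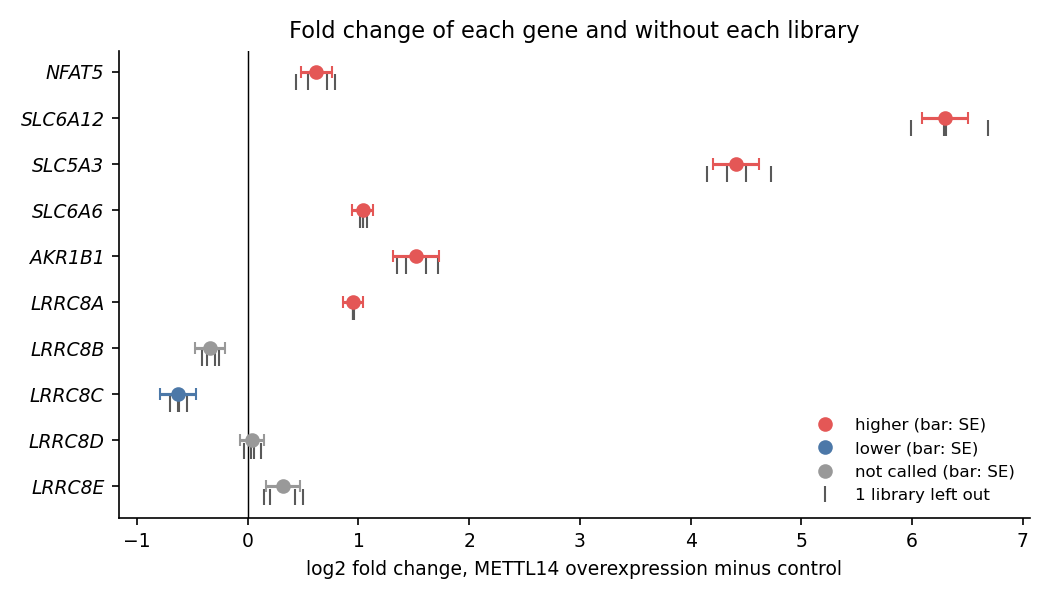
Log2 fold change of each member (METTL14 overexpression minus control, x axis) with bars of 1 SE from edgeR, 2 libraries a group. SLC6A12 at 6.30 and SLC5A3 at 4.41 lie apart from the other members, which run from -0.63 to 1.52.

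NFAT5 (ENSG00000102908; GRCh38 chromosome 16, 69565094 to 69704666, plus strand), the regulator of the response, had 1043 and 1204 counts with the control plasmid and 1535 and 2021 counts with the METTL14 plasmid. This is 54.25 and 61.79 CPM against 78.86 and 99.85 CPM. Both METTL14 libraries lay above both controls, and replicate 2 was the highest. The log2 fold change was 0.62 (SE 0.139, 1.54-fold, edgeR adjusted p = 0.00727), a rise far below those of the betaine and inositol importers. Without METTL14 replicate 2 it was 0.44 and no longer called (edgeR adjusted p = 0.0843). NFAT5 is also controlled through its protein and its place in the cell, which mRNA counts do not show.

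SLC6A12 (ENSG00000111181; GRCh38 chromosome 12, 190077 to 214570, minus strand), the importer of betaine and GABA known as BGT1, was counted 57 and 94 times in the controls, and 6009 and 6164 times in the METTL14 libraries. Its CPM were 2.965 and 4.824 against 308.7 and 304.5, or 3.895 ± 1.31 against 306.6 ± 2.97 (SD, n = 2). The 2 METTL14 libraries were nearly level, the controls differed 1.63-fold between themselves, and the groups lay far apart. The log2 fold change was 6.30 (SE 0.205, 78.5-fold). Leaving out 1 library at a time, this value ran from 5.99 without control replicate 1 to 6.69 without control replicate 2.

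SLC5A3 (ENSG00000198743; GRCh38 chromosome 21, 34073570 to 34106262, plus strand), the sodium-coupled importer of myo-inositol known as SMIT1, was counted 620 and 939 times in the controls, and 15723 and 18323 times in the METTL14 libraries. These are 32.25 and 48.19 CPM against 807.8 and 905.2 CPM. In each group replicate 2 was higher, 1.49-fold in the controls, and the groups did not overlap. The log2 fold change was 4.41 (SE 0.204, 21.3-fold, edgeR adjusted p = 8.26e-05). Leaving out any 1 library kept it between 4.15 and 4.73.

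MRPS6 (ENSG00000243927; GRCh38 chromosome 21, 34073224 to 34143034, plus strand), the host gene and not a member, had 57.84 and 51.94 CPM in the controls against 182.3 and 186.0 with METTL14. It was higher too, but less so (log2 fold change 1.75, SE 0.104, 3.35-fold, edgeR adjusted p = 9.2e-05). Per library the count of SLC5A3, not divided by length, was 0.558 and 0.928 times that of MRPS6 in the controls, and with METTL14 it was 4.43 and 4.87 times. The genes share 273 bases of exon, 2.358% of the exon bases of SLC5A3 and 6.35% of those of MRPS6, and how reads there were divided between them cannot be told from the counts. With both rows summed into 1, the log2 fold change was 3.45, so the rise of the locus as a whole does not depend on that division.

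SLC6A6 (ENSG00000131389; GRCh38 chromosome 3, 14402576 to 14489349, plus strand), the taurine importer known as TauT, was counted 2082 and 2127 times in the controls, and 4259 and 4635 times in the METTL14 libraries. The controls lay at 108.3 and 109.2 CPM and the METTL14 libraries at 218.8 and 229.0 CPM, close within each group and well apart between them. This is a log2 fold change of 1.04 (SE 0.0951, 2.06-fold, edgeR adjusted p = 0.000209). SLC6A6 shares 239 bases of exon with GRIP2 on the opposite strand, and whether the counting used strand is not given in the sources used.

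**Figure D2:**
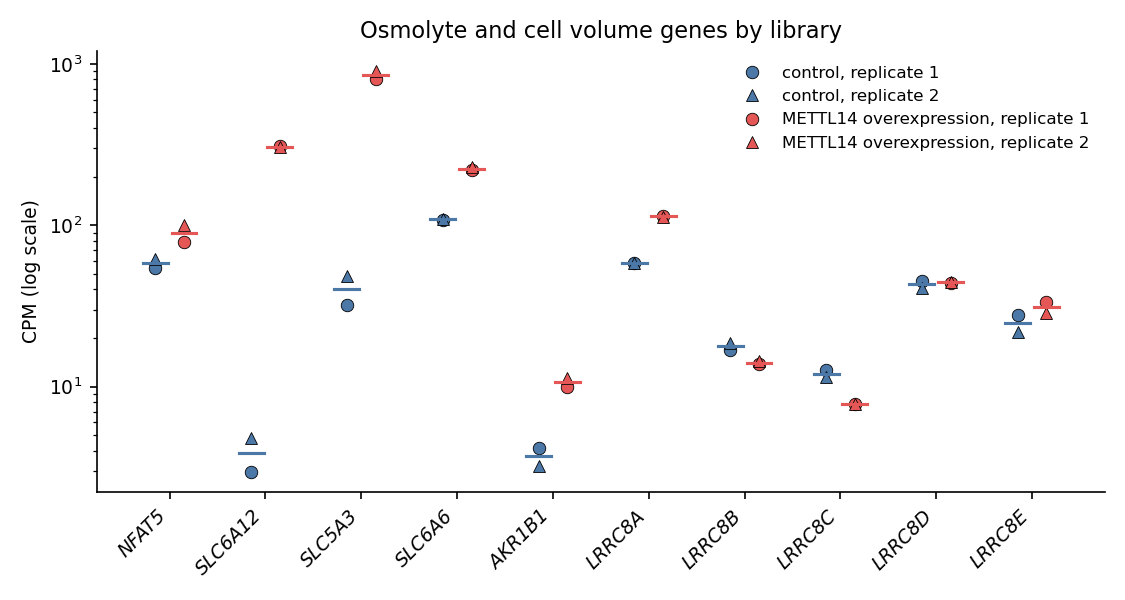
CPM of each member in each of the 4 libraries on a log axis, controls and METTL14 overexpression in separate colours. The groups overlap for LRRC8D alone, and the controls of SLC6A12 lie at 2.965 and 4.824 CPM.

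The controls thus expressed the taurine importer well and the betaine importer barely, and the order changed with METTL14. Per kilobase of exon, which allows genes to be compared, the mean control levels were 13.2 ± 0.073 CPM for SLC6A6, 3.47 ± 0.97 for SLC5A3 and 0.738 ± 0.25 for SLC6A12 (SD, n = 2). With METTL14 the means per kilobase were 74.0 ± 6.0 CPM for SLC5A3, 58.1 ± 0.56 for SLC6A12 and 27.1 ± 0.87 for SLC6A6. Among all 10 members SLC6A6 was the highest and SLC6A12 the lowest in the controls, while SLC5A3 was the highest and LRRC8C the lowest with METTL14. The order of the first 2 with METTL14 depends on the length used: over the longest transcript SLC6A12 (92.0 CPM per kilobase) came above SLC5A3 (74.0).

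In between, the control order per kilobase was LRRC8A (11.2), LRRC8D (8.85), LRRC8E (5.73), NFAT5 (3.54), SLC5A3, LRRC8B (2.16), LRRC8C (1.02) and AKR1B1 (1.01). The libraries of NFAT5 and SLC5A3, of LRRC8C and AKR1B1, and of AKR1B1 and SLC6A12 overlapped, so these neighbours do not differ beyond their spread. With METTL14 the order below SLC6A6 was LRRC8A (21.7), LRRC8D (9.11), LRRC8E (7.15), NFAT5 (5.45), AKR1B1 (2.9), LRRC8B (1.71) and LRRC8C (0.664), and no neighbours in that order overlapped. The 10 genes together took 362.8 and 378.7 CPM in the controls against 1637 and 1758 CPM with METTL14. SLC5A3 and SLC6A12 made up 9.71 and 14.0% of that sum in the controls against 68.2 and 68.8% with METTL14, so most of the gain in members' CPM was theirs. These sums are not divided by length, so long genes such as SLC5A3 weigh more in them.

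AKR1B1 (ENSG00000085662; GRCh38 chromosome 7, 134442350 to 134459284, minus strand), aldose reductase, which turns glucose into sorbitol, was a low gene, with 80 and 63 counts for the controls against 194 and 228 for METTL14. Its CPM rose from 4.161 and 3.233 to 9.967 and 11.26, with no overlap, a log2 fold change of 1.52 (SE 0.209, 2.87-fold, edgeR adjusted p = 0.000906). With METTL14 its counts were the lowest among the higher members.

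The subunits of the volume-regulated anion channel did not move together: LRRC8A was higher, LRRC8C was lower, and LRRC8B, LRRC8D and LRRC8E did not pass the test. LRRC8A (ENSG00000136802; GRCh38 chromosome 9, 128882112 to 128918039, plus strand), the subunit without which the channel does not work, had 58.57 and 58.71 CPM in the controls against 114.0 and 112.7 CPM with METTL14. Replicates were almost level in each group and the groups lay well apart, at a log2 fold change of 0.95 (SE 0.0936, 1.93-fold, edgeR adjusted p = 0.000261).

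LRRC8C (ENSG00000171488; GRCh38 chromosome 1, 89633072 to 89769903, plus strand), a partner subunit, went the other way. The controls held 242 and 223 counts and the METTL14 libraries 152 and 157, or 12.59 and 11.44 CPM against 7.809 and 7.756 CPM, and both METTL14 libraries lay below both controls. It fell with a log2 fold change of -0.63 (SE 0.159, 1.54-fold lower, edgeR adjusted p = 0.0128). The call was lost without METTL14 replicate 1 and without METTL14 replicate 2 (edgeR adjusted p = 0.107 in each case), while the log2 fold change stayed at -0.63 and -0.62.

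The other partner subunits have smaller differences. LRRC8B (ENSG00000197147; GRCh38 chromosome 1, 89524836 to 89597864, plus strand) had 16.85 and 18.68 CPM in the controls against 13.77 and 14.38 with METTL14. Its libraries did not overlap, but its log2 fold change of -0.34 (SE 0.137) did not pass the test (edgeR adjusted p = 0.0724). It was -0.41 without control replicate 1, where the spread comes from the METTL14 libraries alone.

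LRRC8D (ENSG00000171492; GRCh38 chromosome 1, 89821014 to 89936611, plus strand), the subunit known for passing uncharged osmolytes and some drugs, had 45.05 and 40.85 CPM in the controls against 43.88 and 44.56 with METTL14. The METTL14 libraries lay between the controls, and the log2 fold change was 0.04 (SE 0.109, edgeR adjusted p = 0.764), with a sign that turned without control replicate 2 (-0.03). LRRC8B, LRRC8C and LRRC8D lie next to each other on chromosome 1. Their log2 fold changes of -0.34, -0.63 and 0.04 differ in size and sign, but no test of these differences was made.

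LRRC8E (ENSG00000171017; GRCh38 chromosome 19, 7888505 to 7902021, plus strand) had 27.78 and 21.86 CPM in the controls against 33.5 and 28.41 with METTL14. Replicate 1 was higher than replicate 2 in both groups. Both METTL14 libraries lay above the higher control, replicate 2 only just. The log2 fold change of 0.32 (SE 0.156) did not pass the test (edgeR adjusted p = 0.121). It was 0.50 without control replicate 1, where the spread comes from the METTL14 libraries alone. With replicate number as a block it passed (0.32, edgeR adjusted p = 0.0341).

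**Figure D3:**
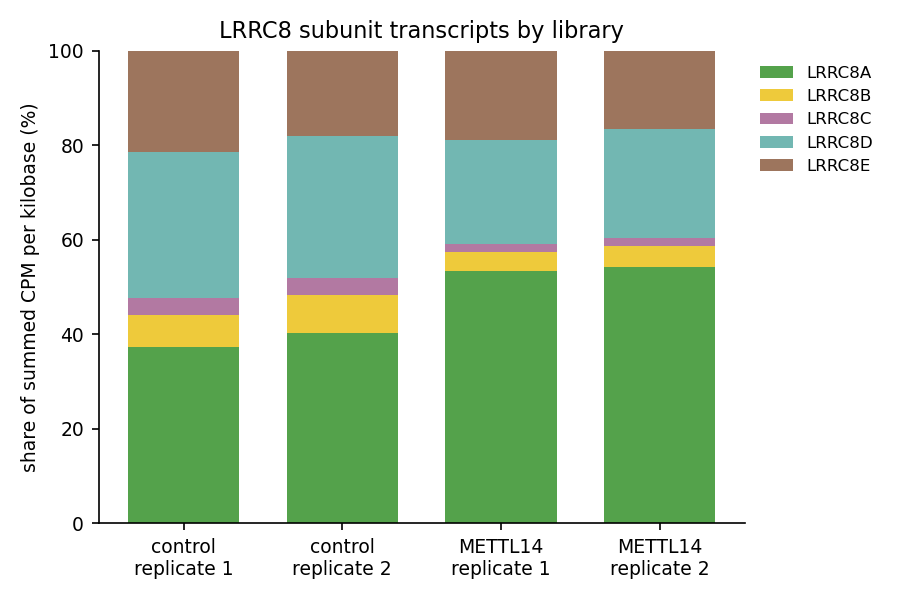
Share of each LRRC8 subunit in the summed CPM per kilobase of the 5 subunits, in percent, for each of the 4 libraries. LRRC8A takes 37.3 and 40.2% in the controls against 53.3 and 54.3% with METTL14, and LRRC8C is the thinnest share in each library.

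LRRC8A made up a larger share of the channel's mRNA with METTL14. Per kilobase of exon the 5 subunits summed to 30.0 and 27.9 CPM in the controls against 40.9 and 39.7 CPM with METTL14. LRRC8A was 38.7 ± 2.0% of that sum in the controls and 53.8 ± 0.71% with METTL14 (SD, n = 2). LRRC8D went from 30.5 ± 0.56 to 22.6 ± 0.73%, LRRC8B from 7.49 ± 0.92 to 4.25 ± 0.22% and LRRC8C from 3.53 ± 0.059 to 1.65 ± 0.027%. For these 4 shares the control and METTL14 libraries did not overlap, and over all tested genes 79.8% did not overlap in CPM. The shares of a library add up to the whole, so a larger share of LRRC8A lowers the others. LRRC8D lost share while its own log2 fold change was 0.04. LRRC8E held 21.4 and 18.1% in the controls against 18.9 and 16.5% with METTL14, which overlap. The count of LRRC8A, not divided by length, was 4.65 and 5.13 times that of LRRC8C in the controls against 14.6 and 14.5 times with METTL14. These are descriptions with no test, since the smallest two-sided exact permutation p for 2 against 2 libraries is 0.333.

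Among 12042 genes with a symbol and a mean of at least 1 CPM, those whose pattern over the 4 libraries lay close to that of SLC6A12 were mostly near silence in the controls. Likeness was measured as the distance between centred log2 CPM values. CYP24A1 (distance 1.31), the vitamin D 24-hydroxylase, had 0.104 and 0.103 CPM in the controls against 6.27 and 7.81 with METTL14. GBP2 (1.34), an interferon-inducible GTPase, TMIGD3 (1.45) and LEMD1 (1.49) followed. SLC5A3 was the 8th nearest (distance 1.87), and METTL14 itself, at 24.55 and 30.69 CPM in the controls against 390.1 and 420.7 CPM with its plasmid, was the 23rd (2.44). SLC5A3 differs from the 4 named genes in its control level, which was already 32.25 and 48.19 CPM.

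The genes nearest to NFAT5 were ZNF558 (distance 0.0383), NBPF3 (0.0448), C12orf76 (0.047), PIWIL4 (0.052) and CCDC107 (0.0558), with log2 fold changes between 0.62 and 0.67. ZNF558 had 16.5 and 18.7 CPM in the controls against 24.5 and 31.3 with METTL14, the same order of libraries as NFAT5. NBPF3 belongs to a family of near-identical copies, so its counts are uncertain. With 4 libraries many genes can share such an order.

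Of 99 related genes of osmolyte handling and volume control in 7 lists, 74 were tested. In these 37 were higher, 6 were lower and 31 were not called, with a median log2 fold change of 0.34. Without control replicate 2 there were 16 lower genes, and without METTL14 replicate 2 there were 3. Over all tested genes 27.0% were higher and 28.1% lower. The lists were chosen with earlier results of these data known, so setting them beside these shares is a description and not a test.

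The next list holds 13 carriers, some of the SLC6 family of the betaine and taurine carriers and some of other SLC families. Of these 7 were tested, 3 of them higher, with a median log2 fold change of 0.31. Among the higher genes only SLC6A9 is of the SLC6 family, and SLC6A20 had a log2 fold change of -0.49 and was not called (named after its values were seen). SLC38A2, a carrier of neutral amino acids that is induced by amino acid lack and by hypertonic medium, had 153.0 and 221.0 CPM in the controls against 415.2 and 429.5 with METTL14 (log2 fold change 1.18, SE 0.168, edgeR adjusted p = 0.0011). SLC6A9, a glycine importer, rose by 1.36 (SE 0.261) and shares 404 bases of exon with CCDC24 on the other strand. SLC2A13, the proton-coupled importer of myo-inositol, rose by 1.31 (SE 0.427) from only 1.144 and 2.977 CPM, and was 0.79 without control replicate 1 and 2.16 without control replicate 2. Its call was lost without METTL14 replicate 2 (edgeR adjusted p = 0.0915). In edgeR 0 of the 7 were lower, with 1 at an unadjusted p below 0.05 and 1 lower in DESeq2. Without control replicate 1 the list had 5 higher genes, and without control replicate 2 it had 2 lower ones. The carrier SLC6A8 of creatine, itself an osmolyte, had 129.6 and 108.6 CPM against 130.5 and 119.9 (0.07, edgeR adjusted p = 0.632), named after its values were seen.

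Of 22 genes of osmolyte metabolism 16 were tested, 7 of them higher and 0 lower in edgeR (1 at an unadjusted p below 0.05, and 0 lower in DESeq2), and the median was 0.26. Without control replicate 2 there were 2 lower genes. AKR1B10, an aldo-keto reductase close to aldose reductase that favours retinal and lipid aldehydes, had 34.8 and 45.32 CPM in the controls against 136.6 and 138.0 with METTL14 (log2 fold change 1.78, SE 0.138). PNPLA6, a lysophospholipase that gives glycerophosphocholine, had 106.9 and 109.1 CPM against 244.2 and 228.3 (1.13, SE 0.0975). It shares 772 bases of exon with AC008878.2 on the same strand. SLC44A2, a choline carrier, rose by 0.87 (SE 0.103).

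Enzymes that make or break down the imported osmolytes were mixed, and the following were named after their values were seen. ISYNA1, which makes inositol phosphate, was higher (0.78, SE 0.0961), whereas IMPA1, which frees myo-inositol from it, had a log2 fold change of -0.23 and IMPA2 of 0.12, neither of which passed the test. CHDH, which oxidises choline on the way to betaine, was at -0.03 (SE 0.128) and SORD, which converts sorbitol, at -0.26 (SE 0.111), also without a call.

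The further NFAT5 targets and osmotic stress genes split: of 16, 10 were tested, 5 higher and 2 lower, with a median of 0.16. ATP1B1, a subunit of the sodium pump, had 135.2 and 163.8 CPM in the controls against 474.1 and 483.6 with METTL14 (log2 fold change 1.68, SE 0.12), and shares 192 bases of exon with NME7 on the other strand. AQP3, a channel for water and glycerol, had 20.55 and 17.86 CPM against 50.71 and 47.77 (1.36, SE 0.123). The 2 lower genes, named after their values were seen, were HSPA4L, a chaperone first described as an osmotic stress protein, at 33.5 and 39.62 CPM against 14.69 and 17.83 (-1.17, SE 0.15), and S100A4, a calcium-binding protein (-0.80, SE 0.116). The higher count of this list was 3 without METTL14 replicate 1 and 3 without METTL14 replicate 2.

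Of 12 ion carriers of volume regulation 9 were tested, 4 higher and 2 lower, with a median of 0.34. SLC12A4, a potassium chloride cotransporter that lets salt out, rose by 0.93 (SE 0.16), and SLC9A2, a sodium proton exchanger that brings sodium in, by 0.61 (SE 0.102). SLC12A4 shares 336 bases of exon with LCAT on the same strand. SLC4A2, the chloride bicarbonate exchanger, had 399.7 and 370.9 CPM in the controls against 237.3 and 218.8 with METTL14 (-0.76, SE 0.101). The other lower gene, SLC12A2, is the NKCC1 cotransporter of salt uptake (-0.41, SE 0.107, edgeR adjusted p = 0.0148, named after its values were seen). The list had 1 lower gene without METTL14 replicate 1 and 1 without METTL14 replicate 2.

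Of 15 kinases and partners of volume regulation and osmosensing 14 were tested, 9 higher and 1 lower, and their median log2 fold change was 0.55. WNK1, a chloride-sensing kinase that controls the salt cotransporters, had 263.3 and 276.7 CPM in the controls against 502.7 and 554.1 with METTL14 (0.97, SE 0.101). AKAP13, an anchoring protein for protein kinase A that acts upstream of NFAT5, rose by 0.86 (SE 0.104) and the phospholipase PLCG1, also placed upstream of NFAT5, by 0.73 (SE 0.0939). The lower gene was MAP2K3, a kinase of the p38 pathway (-0.54, SE 0.127, named after its values were seen), and its call was the one lost without METTL14 replicate 2, when the list had 0 lower genes in edgeR. Without control replicate 2 it had 2.

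Of 16 other channels linked to cell volume 13 were tested, 7 higher and 0 lower in edgeR (0 at an unadjusted p below 0.05, and 0 in DESeq2), with a median of 0.32. PIEZO1, a mechanosensitive cation channel, had 266.1 and 224.4 CPM in the controls against 441.6 and 406.5 with METTL14 (0.79, SE 0.117). PACC1, the proton-activated chloride channel, rose by 0.53 (SE 0.12), and its call was lost without METTL14 replicate 1 (edgeR adjusted p = 0.104). BEST1 had a log2 fold change of 2.14 (SE 0.255), but it shares 1267 bases of exon with FTH1, the abundant ferritin gene on the opposite strand, so its value is uncertain. The higher count fell to 2 without METTL14 replicate 1 and to 4 without METTL14 replicate 2, and without control replicate 2 the list had 3 lower genes.

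The last list holds the calcineurin-controlled relatives of NFAT5 and NFATC2IP, an interacting protein. All 5 were tested, 2 higher and 1 lower, with a median of 0.38. NFATC4, with only 7 and 15 counts in the controls, rose from 0.3641 and 0.7698 CPM to 5.343 and 4.199 (log2 fold change 3.06, SE 0.402). Leaving out 1 library at a time, this value ran from 2.62 to 3.68, the latter without control replicate 2. With a minimum of 5 CPM in 2 libraries the list had 1 higher gene. NFATC3 rose by 0.46 (SE 0.0988), a call lost without METTL14 replicate 1 (edgeR adjusted p = 0.114), and NFATC2IP fell by 0.49 on the log2 scale (SE 0.125), a call lost without METTL14 replicate 2 (edgeR adjusted p = 0.145).

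**Figure D4:**
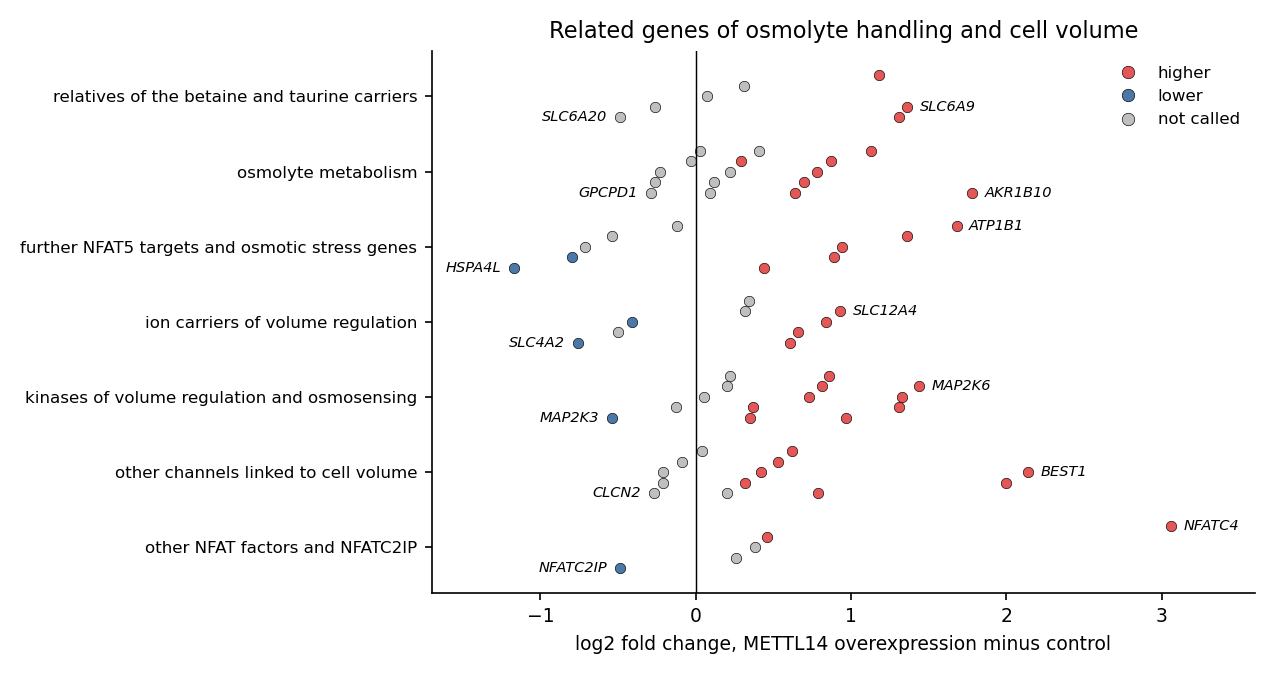
Log2 fold change (METTL14 overexpression minus control) of the 74 tested genes in 7 lists of osmolyte handling and volume control, 1 point a gene, coloured by call, with the lowest and highest gene of each list named. Points to the right of 0 are higher with METTL14, and the points run from -1.17 (HSPA4L) to 3.06 (NFATC4).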

How the data were processed

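Reads were handled with RSEM, HISAT2, StringTie, Bowtie2 and fastp against hg18, per the submitters' processing notes, which name no versions. The identifiers match GENCODE 29 on GRCh38 for 20171 of 20323 rows, so the build behind the counts is unclear. Coordinates, lengths and coding sequences are from GENCODE on GRCh38, and upstream windows from RefSeq on GRCh38.p14.

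The authors deposited expected counts per gene, not normalized. They were rounded (10.791 to 11.637% of values in a library were not exactly whole). The 102 rows with no symbol took at most 0.037% of counts. All 4 libraries entered 1 fit without covariates in edgeR 4.0.16 under R 4.3.3: filterByExpr at a minimum count of 10, TMM scaling, and the quasi-likelihood test with its robust step. Adjustment was by Benjamini and Hochberg over 12700 genes, and the SE is the log2 fold change over the square root of F. The common biological coefficient of variation was 10.85%. Counts of 12700 genes for METTL14 against control were simulated with 200 genes changed. The fit recovered 38% of the genes changed 1.5-fold, 78% of those changed 2-fold, 94% of the 4-fold and 98% of the 8-fold ones. Of its 165 calls, 11 were on unchanged genes. In the data far more genes were called (6998), so these rates do not carry over to the real comparison.

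Members and lists were chosen with earlier results of these data known. Named are the members, METTL14, MRPS6, the 3 tested genes of smallest p in each list and the 5 genes nearest in pattern to SLC6A12 and to NFAT5 (prior count 2 on the log2 scale); some genes this rule takes are not reported here. Alternatives were DESeq2 1.42.0, its size factors, library totals, limma-voom (limma 3.58.1), no low-count filter, a minimum of 5 CPM in 2 libraries, the fit without its robust step, a replicate block, symbol rows summed, SLC5A3 summed with MRPS6, the longest transcript as length, and leaving out each library. Tables used Python 3.11.15, numpy 2.4.6 and pandas 2.3.3.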

Additional observations from a re-analysis of the deposited data

How the results depend on the processing

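Leaving out 1 library at a time, the number of genes called lower ran from 2305 (without METTL14 replicate 1) to 4575 and of genes called higher from 2306 to 4450. The members called lower ran from 0 to 2, and the listed genes called lower from 3 to 16. The log2 fold change of NFAT5 ran from 0.44 to 0.79, of LRRC8B from -0.41 to -0.26, of LRRC8C from -0.70 to -0.55, of LRRC8D from -0.03 to 0.12, with its sign turned without control replicate 2, and of LRRC8E from 0.15 to 0.50. SLC6A12, SLC5A3, SLC6A6, AKR1B1 and LRRC8A kept their direction in each of the alternatives, and the latter 4 their call. An arm left with 1 library is assumed to vary like the other arm. The cause of these shifts was not tested.

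The replicate numbers were not shown to pair the libraries: deviations of same-numbered libraries correlated at 0.04 over genes, with 2 pairs only. With the replicate block 3793 genes were higher and 3903 lower, against 3429 and 3569 without it. The block gave 10 lower genes over the lists in place of 6, and LRRC8E was called (log2 fold change 0.32).

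With the longest transcript as length, which by construction raises levels per kilobase, control means were 4.08 CPM per kilobase for NFAT5, 1.17 for SLC6A12, 16.7 for SLC6A6, 1.92 for AKR1B1, 12.7 for LRRC8A, 1.66 for LRRC8C and 10.9 for LRRC8D. With METTL14 they were 92.0 for SLC6A12, 34.3 for SLC6A6, 5.5 for AKR1B1, 24.5 for LRRC8A, 1.08 for LRRC8C, 11.2 for LRRC8D and 8.27 for LRRC8E. The share of LRRC8A with METTL14 was then 52.4%, and control and METTL14 shares were 6.51 and 3.74% for LRRC8B, 4.88 and 2.30% for LRRC8C and 31.9 and 23.9% for LRRC8D. With 2 libraries a group, small differences such as those of LRRC8B and LRRC8E are at the edge of what can be called.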
